A study of Homo sapiens with 15 samples.

Results

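The genes described are 39 human genes of the G2 phase, the spindle and cell division, among 16887 genes measured in each of the 2 deposited tables. They were taken by symbol from a list of 40 names covering CDK1 and its partners, mitotic kinases, the spindle checkpoint, kinetochores, mitotic kinesins and cytokinesis. The remaining name, ASPM, was not analysed here. The measurements are RNA sequencing of Mia PACA-2, an established human pancreatic cancer cell line obtained from the ATCC. Control cells were compared with cells overexpressing cytidine deaminase (CDA), the enzyme that turns cytidine and deoxycytidine into their uridine forms, and with cells overexpressing CDA_E67Q, in which a glutamate of the catalytic site is replaced by glutamine. Each group held 5 libraries, called pools 1 to 5, and none of them received a drug treatment. The labels say that the cells are of 1 line but not what a pool is, how the overexpression was made, or whether equal numbers share a source. The p-values below therefore measure the spread between these libraries, part of which may be technical.

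Entry into mitosis is driven by CDK1 bound to a B-type cyclin, which CDC25 phosphatases switch on and Polo and Aurora kinases reinforce. The spindle checkpoint then holds the anaphase-promoting complex in check until every kinetochore is attached, after which CDC20 lets it mark securin and cyclin B for destruction and the cell divides. Most of these genes are transcribed late in the cell cycle, through promoter elements that recruit the MuvB core with B-MYB and FOXM1 in dividing cells and with repressive E2F and pocket proteins in resting cells.

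The labels were checked first on CDA itself, whose normalised count lay between 9.91 and 312 in the control libraries, between 775 and 5222 in the CDA libraries and between 1357 and 5475 in the CDA_E67Q libraries. Both overexpressing groups lay above every control library. An estimated 21.1 to 30.7 M reads stood behind each library, and 12508 to 13090 genes were above the floor. Of the line's defining genes, KRT8, KRT18 and VIM were present in all 15 libraries, CDKN2A was at 0 in all 15, and CDH1 reached at most 3.59 normalised counts. All 3 genes that were present were called between pools 1 to 5 in the test described below. VIM was at 271999 to 307345 in pool 5, above the 115978 to 240535 of the other libraries. KRT8 was at 10919 to 13142 against 11523 to 43488, and KRT18, at 12162 to 15179, lay within 8490.3 to 32331. Pool 5 differed from the other pools in all 3 groups. CDH5, an endothelial cadherin, was at 618, 576 and 577 normalised counts in the control, CDA and CDA_E67Q libraries of pool 5 and at 0 in the other 12. CD68, a lysosomal protein of phagocytes, was at 1471 to 1749 in pool 5 and at 343 to 1115 elsewhere. Summed over the 3 endothelial markers, the level was 582 to 620 in pool 5 and 1.01 to 27.2 elsewhere. Nearly all of the pool 5 sum was CDH5. VWF was at 1.90, 3.47 and 25.4 in the control, CDA and CDA_E67Q libraries of pool 5 and reached 27.2 elsewhere. PECAM1 was at 0 in 8 of 15 libraries and reached only 4.99. Of 4 leukocyte markers, CD68 made up nearly the whole sum of 1471 to 1759 in pool 5 against 343 to 1116 elsewhere, and PTPRC, which all leukocytes carry, was at 0 in 12 libraries and reached 10.5. The sum of the 3 fibroblast markers with a level was 26249 to 29323 in pool 5 and 7006 to 41678 elsewhere, with DCN and LUM at 0 in all 15. Nearly all of that sum is COL1A2. COL1A1, the other chain of type I collagen, was called between pools (adjusted p = 0.040), at 97.8 to 195 normalised counts in pool 5 and 7.16 to 99.0 elsewhere. All 4 acinar markers were at or near 0. Estimated reads in pool 5, at 22.3 to 25.9 M, lay within the range of the other libraries.

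The promoters of the members are shown first, as a description, and their part in the differences between pools was not tested. Windows of 250 bases before to 50 after a start were available in RefSeq (GRCh38.p14) for 33 of the 39 members, 43 windows in all, and AURKA, BUB3, TTK, BIRC5, TPX2 and UBE2C had none. The letters searched were TTTGAA and TTCGAA, the core of the cell cycle genes homology region (CHR) that the MuvB complex binds, and CCAAT, the box bound by NF-Y. Both strands were searched, so that TTTGAA also appears as TTCAAA and CCAAT as ATTGG, while TTCGAA reads the same on both. The 5 windows shown are those of CCNB2 and CDC20, which hold both elements, of ANLN, which had the largest difference between pools, of KIF20A, which holds CCAAT without either CHR core, and of CDC25B, the member that did not pass the test between pools. Capitals mark the matches, in the direction of transcription.
CCNB2: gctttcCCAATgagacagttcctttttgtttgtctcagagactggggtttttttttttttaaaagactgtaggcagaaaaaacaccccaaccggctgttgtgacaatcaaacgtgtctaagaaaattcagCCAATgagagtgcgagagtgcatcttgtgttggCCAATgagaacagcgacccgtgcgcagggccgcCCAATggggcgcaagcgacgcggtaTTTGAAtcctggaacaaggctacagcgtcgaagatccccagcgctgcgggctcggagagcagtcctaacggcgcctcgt
CDC20: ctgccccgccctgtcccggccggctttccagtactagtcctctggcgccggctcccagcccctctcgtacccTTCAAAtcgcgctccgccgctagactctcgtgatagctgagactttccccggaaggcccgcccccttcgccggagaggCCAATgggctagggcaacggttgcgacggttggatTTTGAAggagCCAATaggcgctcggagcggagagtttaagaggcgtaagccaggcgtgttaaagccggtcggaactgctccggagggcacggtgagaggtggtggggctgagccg
ANLN: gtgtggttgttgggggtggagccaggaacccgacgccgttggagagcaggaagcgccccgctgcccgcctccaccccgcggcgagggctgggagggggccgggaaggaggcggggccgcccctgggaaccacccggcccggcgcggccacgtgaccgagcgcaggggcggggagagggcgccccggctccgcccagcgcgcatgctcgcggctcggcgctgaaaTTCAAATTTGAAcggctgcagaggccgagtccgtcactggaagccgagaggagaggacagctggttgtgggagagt
KIF20A: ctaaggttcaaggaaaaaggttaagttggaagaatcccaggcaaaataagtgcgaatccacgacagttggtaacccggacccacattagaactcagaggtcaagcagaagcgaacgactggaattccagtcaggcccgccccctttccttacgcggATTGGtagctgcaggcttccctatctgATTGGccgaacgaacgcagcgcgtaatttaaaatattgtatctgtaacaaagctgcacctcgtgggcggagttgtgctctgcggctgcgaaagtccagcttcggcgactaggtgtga
CDC25B: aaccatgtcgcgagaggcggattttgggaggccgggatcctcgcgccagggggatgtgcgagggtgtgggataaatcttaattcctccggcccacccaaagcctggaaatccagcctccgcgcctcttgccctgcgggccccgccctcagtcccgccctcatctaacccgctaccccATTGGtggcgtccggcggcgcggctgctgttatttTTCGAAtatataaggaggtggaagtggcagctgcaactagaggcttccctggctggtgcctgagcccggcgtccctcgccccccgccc
They lie at chr15:59104896-59105195 for CCNB2, chr1:43358731-43359030 for CDC20, chr7:36389612-36389911 for ANLN, chr5:138178862-138179161 for KIF20A and chr20:3796060-3796359 for CDC25B, all on the plus strand. The CDC25B window is 1 of 4 in the table for that gene and the only one of them with a CHR core.

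At least 1 window with TTTGAA or TTCGAA was found for 25 of the 33 members, against 15.2% of all tested genes with a window. By windows, 28 of 43 (65.1%) held it, against 16.4% of all 35116 windows of the same length. CCAAT was in 32 of 43 windows (74.4%) against 34.6% of all, and it occurred at least 2 times in 18 (41.9%) against 10.8%. Both elements stood together in 23 windows (53.5%) against 6.38% of all. The members without a CHR core in any window were AURKB, CCNA2, CCNB1, CENPE, KIF20A, KIF2C, NEK2 and PTTG1, and 6 members lacked CCAAT (ANLN, BUB1B, CENPE, KIF2C, NDC80 and NUF2). Absence here says only that these letters are not in these windows. The 25 members with the core had a median log2 difference of −1.39 between pool 5 and pools 1 to 4, and the 8 without it had −1.21, with overlapping ranges (−2.14 to 0.21 and −1.47 to −0.87).

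Between pools, the members had nearly the same pattern: they were low in pool 5 of all 3 groups and varied much less among pools 1 to 4. An F test over pools 1 to 5 with the group as covariate (limma) called 38 of 39 members at an adjusted p below 0.05, with adjusted p-values from 1.43e-05 to 0.0469, where 45% of the 11588 genes tested were called. All 38 were lower in pool 5, and 22.2% of all genes were called and lower there. The score, the mean log2 deviation over the 39 genes, was −1.15, −1.09 and −0.88 in the control, CDA and CDA_E67Q libraries of pool 5. It lay between 0.074 and 0.54 (median 0.28) in the other 12 libraries, so that pool 5 did not overlap with them. Because pool 5 was singled out by earlier work on these data, its differences are given as a description, without a test. The median member was lower by a log2 difference of −1.37, which is 2.58-fold, and members ranged from −2.14 to 0.21, while the median over all genes was 0.018. By group the median was −1.41 in control, −1.52 in CDA and −1.17 in CDA_E67Q. All 3 pool 5 libraries lay below all other 12 for 35 of the 39 members, against 17.3% of all genes, and 16.9% of all genes lay above. In bulk RNA, fewer cells in G2 and mitosis and less of these RNAs per cell cannot be told apart. The CDH5, CD68, COL1A1, VIM and KRT8 levels above moved with the same 3 libraries, and their part in the result was not tested.

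CDK1, its cyclins and its activating phosphatases were low in pool 5 for 5 of 6 genes, at a median of −1.28 (log2 difference from pools 1 to 4, as in the following). CDK1 (chr10:60778331-60794852), the kinase that starts mitosis, was at 2548, 3341, 5078, 3071 and 1317 normalised counts in control pools 1 to 5. Its CDA libraries gave 3453, 6127, 3607, 3075 and 1589.9, and its CDA_E67Q libraries 3112, 4186, 3526, 2746 and 1459. Pool 5 was lowest in each group, and the CDA library of pool 2 was the highest of all 15. CCNB1 (chr5:69167010-69178245), the cyclin B1 that activates CDK1, was at 11899.8, 9389, 7869, 10004 and 3646 in control. It was at 9763, 11367, 8031, 12995 and 3995 in CDA, and at 9359, 9799, 8111, 10897 and 4625 in CDA_E67Q. The pool 5 values lay below all the others, by 2.42-fold on average for CCNB1 and 2.44-fold for CDK1. The other cyclins had log2 differences of −1.62 for CCNB2, the largest of the 6, and −1.43 for CCNA2. CDC25C, a phosphatase that removes the inhibitory phosphates of CDK1, had −0.83.

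CDC25B (chr20:3786772-3806121), a phosphatase of the same family that acts on CDK1 at the centrosome in G2, was the member that did not pass (adjusted p = 0.25). It was at 8992, 7294, 6239, 7572 and 8004 normalised counts in control, 7084, 6400.1, 6278, 7950.2 and 7795 in CDA, and 6672, 5505, 7479, 6945 and 8515 in CDA_E67Q. Pool 5 lay inside the range of the other 12 libraries, and the log2 difference was 0.21.

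All 3 mitotic kinases were called, with log2 differences in pool 5 from −1.93 for PLK1 to −0.87 for NEK2, a centrosome kinase. PLK1 (chr16:23677656-23690367), the Polo-like kinase of mitotic entry and spindle assembly, was at 7889, 4485, 3592, 4419 and 1171 in control. It was at 4587, 5391, 4421, 7562 and 1384 in CDA, and at 4018, 6774, 4354, 6344 and 1509.7 in CDA_E67Q. Pool 5 was lowest in every group, and pool 1 was highest in control while pool 4 was highest in CDA and pool 2 in CDA_E67Q. AURKA, the centrosomal Aurora kinase, had −1.30.

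All 5 spindle checkpoint genes were called as well, at a median of −1.19. BUB1B (chr15:40161023-40221136), which encodes the BUBR1 subunit of the checkpoint complex, was at 1948, 1521, 1837, 2248 and 956 in control and at 2151, 2110.3, 1761, 2319.7 and 725 in CDA. In CDA_E67Q it was at 1711, 2559, 1875, 2274 and 798, so that pool 5 lay apart in all 3 groups. MAD2L1, which holds CDC20 inactive, had the largest difference of the role (−1.34), TTK, the kinase that starts checkpoint signalling, had −1.19, BUB1, the kinetochore kinase, had −1.09, and BUB3, the docking partner of both BUB proteins, had the smallest at −0.64.

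The chromosomal passenger complex, which corrects faulty attachments and guides cytokinesis, had 4 of 4 genes called. BIRC5 (chr17:78214186-78225636), or survivin, was at 6222, 6259, 3934, 6172 and 1617 in control, at 6153, 7849, 5208, 6556 and 1651 in CDA, and at 5675, 8371, 5339, 6014 and 2112 in CDA_E67Q. Its log2 difference of −1.76 was the largest of the complex. AURKB (chr17:8204733-8210600), the kinase of the complex, was at 2974, 3185, 2530.2, 2852 and 1235 in control, at 2898, 3972, 3460.2, 3679.7 and 1195 in CDA, and at 2727, 4376, 2977, 3054 and 1539.5 in CDA_E67Q. Both genes were lowest in pool 5 and highest in a library of pool 2. CDCA8 (borealin) had −1.56.

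INCENP (chr11:62123973-62153163), the scaffold of the same complex, differed from its partners in 1 library. Its values were 1800.5, 1747, 1541, 2764 and 1029 in control, 2392, 2457, 2232, 2217 and 1026 in CDA, and 2272, 1008, 2362, 2615 and 1203 in CDA_E67Q. The CDA_E67Q library of pool 2 was the lowest of all 15, below the 3 of pool 5, so that INCENP was called (adjusted p = 0.018) without a gap between pool 5 and the rest.

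Kinetochore and centromere genes were called in 5 of 5 cases, with a median log2 difference of −1.47. CENPF (chr1:214603195-214664588), a large kinetochore protein that builds up in G2, was at 7208, 7469, 6483, 7743 and 2142 in control. It was at 6531, 9827, 7354, 8934 and 2136 in CDA and at 5527, 8351, 6447, 6783 and 2579 in CDA_E67Q. The highest pool 5 library, at 2579, lay far below the lowest of the other 12, at 5527. CENPA, the histone H3 variant that marks the centromere, had −1.49, CENPE, a kinetochore motor, −1.47, and the NDC80 complex subunits NUF2 and NDC80 had −1.38 and −1.08.

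Of 6 mitotic kinesins, the motor proteins of the spindle, 6 were called and 6 had all pool 5 libraries below the rest. KIF20A (chr5:138178719-138187715), a motor of the central spindle, was at 4660.3, 3426, 3622, 4013 and 1842 in control, at 4293, 4957, 2958, 4009 and 1948 in CDA, and at 3431, 2926, 3408, 4073 and 2285 in CDA_E67Q. With −0.90 it had the smallest difference of the 6. KIF4A, which organises chromosomes and the midzone, had the largest (−1.83), followed by KIF18A (−1.59), KIF11 (−1.48), the motor that pushes spindle poles apart, KIF23 (−1.39) and KIF2C (−1.13).

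The 3 microtubule-associated proteins of the spindle were called. PRC1 (chr15:90966038-90995629), which bundles midzone microtubules, was at 5433, 4633, 4121, 5253 and 1269 in control, at 5041, 5673, 4559.6, 5058 and 1407 in CDA, and at 4624, 6654, 4394, 4639 and 1563 in CDA_E67Q. Its pool 5 libraries lay far below the other 12, which stayed within a 1.61-fold range. TPX2, the activator of Aurora A, had a log2 difference of −1.38 and HMMR, a spindle pole protein, −1.37.

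Genes of anaphase and its ubiquitin pathway were called in 3 of 3 cases. CDC20 (chr1:43358955-43363203), the coactivator of the anaphase-promoting complex, was at 11831, 8397, 6041, 9104 and 2609 in control, at 8581, 11318, 8932, 13128 and 2925 in CDA, and at 8177, 14878, 8293, 10558 and 3343 in CDA_E67Q. Pool 5 was lowest in each group by a wide gap. UBE2C, the ubiquitin-conjugating enzyme of the complex, had a log2 difference of −1.56 and PTTG1, or securin, −1.15.

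The 2 cytokinesis genes were both called, with log2 differences in pool 5 of −2.14 for ANLN and −0.59 for ECT2. ANLN (chr7:36389806-36453791), the actin-binding anillin of the contractile ring, had the largest difference of all 39 members, a 4.40-fold lower level in pool 5 (adjusted p over pools = 1.43e-05). It was at 9565, 11568, 11373, 15049 and 2701 in control, at 13709, 11470.1, 12121, 12249 and 2374 in CDA, and at 11109, 14263, 11510.3, 13242 and 3299 in CDA_E67Q. ECT2 (chr3:172750682-172821474), the exchange factor that activates RHOA at the furrow, was at 3503, 4399, 3159, 5813 and 3196 in control, at 6675, 6016, 5433, 4946 and 3211 in CDA, and at 5462, 6305, 5091, 5312 and 3718 in CDA_E67Q. For ECT2 the control libraries of pools 1 and 3 were as low as pool 5, and the test was passed narrowly (adjusted p = 0.047).

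Among the genes of the mitotic chromosome, MKI67 (chr10:128096659-128126385), the surface protein detected as Ki-67, was at 8609, 6524, 13058, 10656 and 3046 in control. It was at 9814, 14146, 11151, 9305 and 3738 in CDA and at 7637, 11114, 10968, 10078 and 4104 in CDA_E67Q. Pool 5 lay below the rest by 2.79-fold on average. TOP2A (chr17:40388516-40417950), the topoisomerase that untangles chromosomes, was at 22436, 15232, 18706, 19369 and 9856 in control, at 22155, 25612, 13520.5, 23546 and 9356 in CDA, and at 19089, 8982, 15706, 22644 and 11389.6 in CDA_E67Q. As with INCENP, the CDA_E67Q library of pool 2 was the lowest of the 15 (adjusted p over pools = 0.028).

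**Figure D1:**
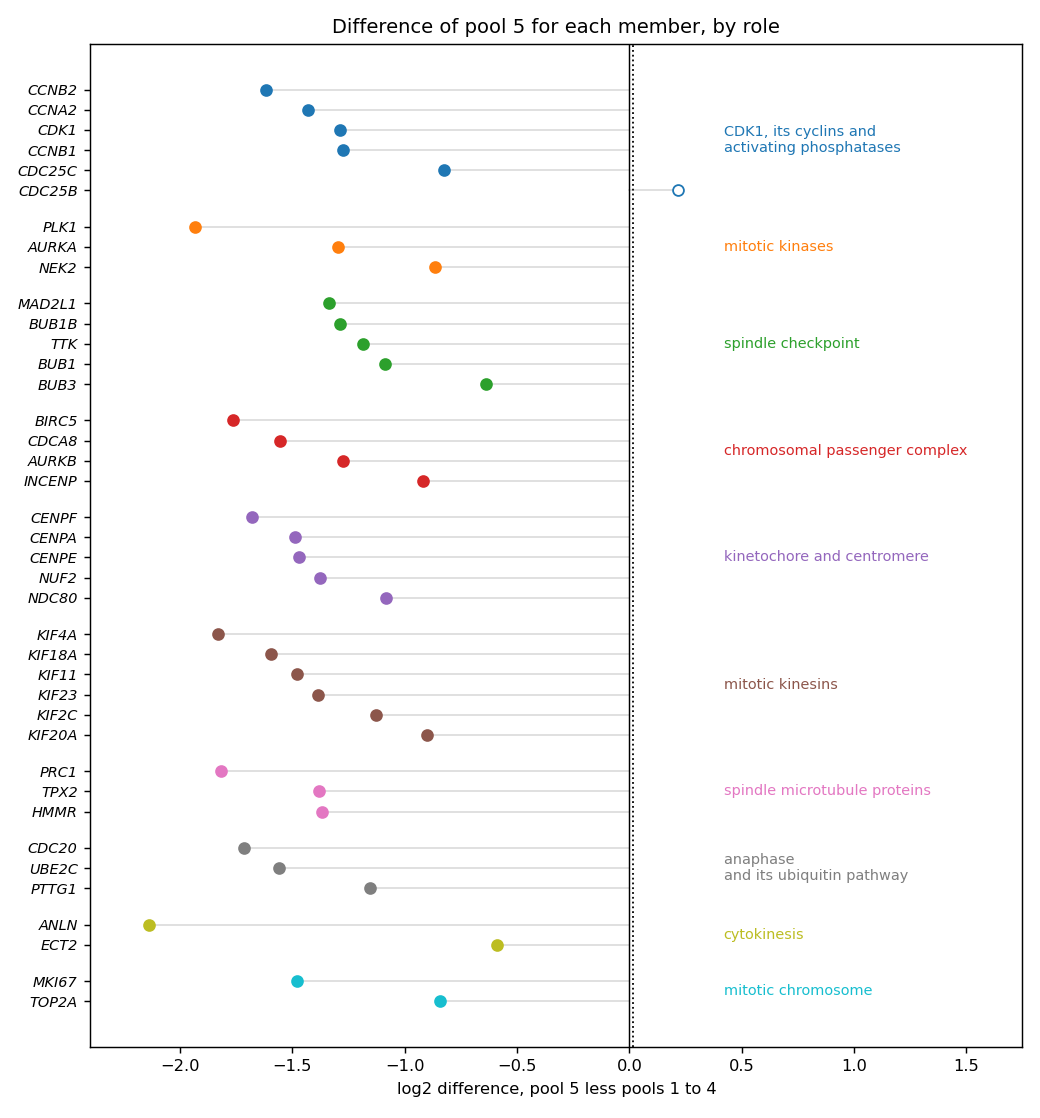
Log2 difference between pool 5 and pools 1 to 4 for each of the 39 members, grouped by role, with filled points for members called between pools 1 to 5, an open point for CDC25B, and a dotted line at the median of all genes (0.018). Points range from −2.14 for ANLN to 0.21 for CDC25B.

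Without pool 5, none of the 39 members was called between pools 1 to 4 (limma, smallest adjusted p = 0.17), where 1.43% of 11395 genes were called. Unadjusted p-values below 0.05 were found for 2 members, UBE2C and BIRC5 (0.012 and 0.016), against 18.5% of all genes. Within these 12 libraries the ratio of the highest to the lowest value ran from 1.33 for NEK2 to 2.85 for TOP2A. The mean over the 3 libraries of a pool was highest in pool 2 for 22 members and in pool 4 for 14, and it was lowest in pool 3 for 19. The mean score was 0.21 ± 0.12 (SD, n = 3) in pool 1, 0.35 ± 0.21 in pool 2, 0.15 ± 0.040 in pool 3 and 0.33 ± 0.055 in pool 4, against −1.04 ± 0.14 in pool 5.

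Further genes of the same machinery, from lists that hold none of the members, were counted over the same F test of pools 1 to 5, which called 45% of all genes. Of 40 other mitotic genes 38 were called, 37 of them lower in pool 5, with a median log2 difference of −1.32. CDCA3, a ubiquitin ligase component that triggers mitotic entry, was at 1581 to 3499.6 normalised counts in pools 1 to 4 and at 471 to 563 in pool 5. SPC25, a partner of NDC80, was at 615 to 1598 and at 179 to 207. For both, the groups of libraries did not overlap. Condensin, cohesin and separase genes were called in 15 of 20 cases, all lower in pool 5, among them CDCA5 (sororin), NCAPH and NCAPG (−1.69, −1.61 and −1.58). The anaphase-promoting complex and its regulators had 10 of 17 called, 9 lower, led by FBXO5 (EMI1), its inhibitor (−1.63), and ANAPC15 (−1.66). FZR1, the coactivator that works in late mitosis and G1, passed the test with 2082 to 2192 in pool 5, inside the range of 1092 to 2492 elsewhere. DNA replication genes had 31 of 34 called, all lower, at a median of −1.39. CDC45, ORC6 and GINS2, of the replicative helicase and the origin complex, had −2.05, −1.98 and −2.56. The members' low level in pool 5 was thus shared with genes of S phase, and its median lay near theirs.

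The transcription regulators of these genes were split, with 9 of 15 called, 6 lower and 3 higher in pool 5. FOXM1, which activates G2 genes, was at 5730.3 to 9180.3 in pools 1 to 4 and at 2124 to 2215 in pool 5, and MYBL2 (B-MYB), which joins the MuvB core, was at 6972 to 11108 and at 3290.4 to 3407. Neither overlapped. TFDP1, the E2F partner, had a log2 difference of −0.997. The 3 called higher, named after their values were seen, were E2F5, TFDP2 and NFYA. E2F5, an E2F that represses with pocket proteins, was at 463 to 544 in pool 5 and 15.5 to 207 elsewhere, and TFDP2, an E2F partner, at 3353 to 3474 and 1727 to 3351, while NFYA, a subunit of NF-Y, at 1174 to 1275, lay within the 526 to 1410.2 of the other libraries. The pocket protein RBL2 (p130) did not pass (adjusted p = 0.0845), with 4226 to 4413.5 in pool 5 and 766 to 3546 elsewhere, and its relative RBL1 (p107) was called and lower (−1.22). LIN9 was not analysed here. Among CDK inhibitors, 3 of 5 tested were called. CDKN1B (p27), which blocks CDK2 in resting cells, was at 2680.3 to 2872 in pool 5 and at 805 to 2269 elsewhere, without overlap. CDKN2C (p18) was lower, at 370.3 to 438 against 804 to 1318. CDKN1A (p21) was called with 108 to 147 in pool 5 inside a range of 73.7 to 656 elsewhere, and CDKN2A and CDKN2B were at 0 in all libraries.

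CDA overexpression against control asked whether more of the enzyme changes these genes. None of the 39 members was called (limma), and none of the 11341 genes tested was called either (0% background). No member had an unadjusted p below 0.05, against 0.282% of all genes, and even CDA itself, with a log2 difference of 4.71 ± 0.92 (SE, unadjusted p = 0.00028), did not pass over all genes. Of the 39 members 37 were higher in CDA, against 52.8% of all genes, by a median log2 difference of 0.13 (−0.098 to 0.39). Their median standard error was 0.38, which includes the differences between pools, and 0.12 with the pool number as a block. Under that block none was called, and 1 member had an unadjusted p below 0.05 (limma), against 1.77% of genes. The median log2 difference was 0.15 without pool 5, with 37 members higher against 51.9% of genes. It was 0.063 without pool 2, with 31 higher. It turned to −0.13 without the control library of pool 5 and reached 0.44 without the CDA library of pool 5, since either leaves the low pool in 1 group only. With 1 library left out, the members higher in CDA numbered 3 without control pool 5, 19 without CDA pool 2, 22 without CDA pool 4 and 30 to 38 otherwise. Leaving out 1 library of pools 1 to 4 also unbalances the groups, since the low pool 5 then weighs more in the shortened group. The smallest p-values belonged to ECT2 at a log2 difference of 0.39 (95% interval −0.11 to 0.89), INCENP at 0.22 (−0.42 to 0.87) and BUB3 at 0.21 (−0.30 to 0.72), each with an adjusted p of 1.00. ECT2 was higher in CDA in 4 of 5 pools. INCENP was at 0.044 without control pool 5 and 0.46 without CDA pool 5. BUB3 was at 4147, 5207, 5929.8, 5567 and 3282 in control, at 5398, 8721, 5290.3, 5346 and 3663 in CDA, and at 5268, 6179, 5136, 5203 and 3736 in CDA_E67Q. Most of the excess of CDA for BUB3 came from pool 2. Its difference was 0.079 without pool 2 in both groups and 0.043 without the CDA library of pool 2 alone.

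CDA_E67Q against control gave no call among the members, nor among all genes (0%), and no member with an unadjusted p below 0.05 against 0.476% of genes. With the pool number as a block, 1 member had an unadjusted p below 0.05 (limma, ECT2, 0.028), against 2.34% of genes. Of the members 28 were higher, against 51.4% of genes, by a median of 0.095 (−0.20 to 0.39). The median was 0.059 without pool 5, with 24 members higher against 50.6% of genes. It was 0.042 without pool 2, with 23 members higher. Without the control library of pool 5 it was −0.19, and without the CDA_E67Q library of pool 5 it was 0.31. With 1 library left out, the members higher numbered 4 without control pool 5, 18 without CDA_E67Q pool 2 and 21 to 37 otherwise. As above, leaving out 1 library of pools 1 to 4 gives the low pool 5 more weight in the shortened group. ECT2 had the smallest p again, at 0.39 (95% interval −0.068 to 0.84), higher in 4 of 5 pools. BUB1 (chr2:110637698-110678114), at 0.23 (−0.36 to 0.82), was at 3588, 3247, 3457, 3817 and 1627 in control, at 4271, 4480.4, 3929.9, 4107 and 1730.1 in CDA, and at 3524, 4829.6, 3589, 4195 and 2187 in CDA_E67Q. Its difference was 0.0083 without control pool 5 and 0.41 without CDA_E67Q pool 5. In pools 1 to 4 every CDA library lay above every control library for BUB1, the only member of 39 for which this held, against 0.44% of all genes. UBE2C (chr20:45812576-45816957), at 0.34 (−0.58 to 1.25), was at 4894, 6240.2, 5068, 4617 and 1822 in control, at 5549.7, 8030.3, 6631, 5832 and 1994 in CDA, and at 5442, 12376, 5654, 4709 and 2327 in CDA_E67Q. Its highest value was the CDA_E67Q library of pool 2. Leaving out that library alone gave a difference of 0.030, with pool 5 then weighing more in CDA_E67Q than in control. Between same-numbered libraries the difference was 0.15, 0.99, 0.16, 0.028 and 0.35 in pools 1 to 5. Both comparisons use the same 5 control libraries, so their values are only set side by side.

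CDA against CDA_E67Q, the comparison that bears on the catalytic residue, gave no call among the members or among 11588 genes (0%), and no member with an unadjusted p below 0.05 against 0.207% of genes. Members higher in CDA numbered 25, against 49.6% of genes, with a median log2 difference of 0.014 (−0.10 to 0.26). Without pool 5 the median was 0.093, with 33 members higher against 49.6% of genes. It was 0.032 without pool 2, with 26 members higher. Without the CDA library of pool 5 it was 0.34, and without the CDA_E67Q library of pool 5 it was −0.18. With 1 library left out, the members higher numbered 5 without CDA_E67Q pool 5, 6 without CDA pool 2, 13 without CDA pool 4 and 18 to 38 otherwise. Here too, leaving out 1 library changes the weight of the low pool 5 in 1 group only. TOP2A had 0.26 (95% interval −0.42 to 0.93), CDK1 0.20 (−0.60 to 1.01) and BUB3 0.12 (−0.35 to 0.59). For TOP2A the sign turned to −0.057 without pool 2. All 3 intervals include 0, and their width includes the differences between pools. With the pool number as a block, the unadjusted p-values (limma) were 0.25 for TOP2A, 0.22 for CDK1 and 0.38 for BUB3.

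Set side by side by pool number, the members' differences varied from pool to pool. In CDA against control, 18, 37, 25, 26 and 29 of 39 members were higher in pools 1 to 5, against 49.5%, 51.8%, 49.9%, 52.3% and 54.7% of all genes. The medians were −0.018, 0.40, 0.094, 0.11 and 0.058. In CDA_E67Q against control, 7, 30, 24, 22 and 38 members were higher, against 49.1%, 49.9%, 50.4%, 50.3% and 51.1% of genes, with medians of −0.23, 0.25, 0.060, 0.017 and 0.28. CDA lay above CDA_E67Q for all 39 members in pool 1 and for 2 of 39 in pool 5, with medians of 0.24 and −0.22, while 50.8% and 52.9% of all genes were higher. In pools 2, 3 and 4 the members higher in CDA numbered 21, 21 and 28, against 49.9%, 49.6% and 53.2% of genes. The score of CDA was above that of control in all 5 pools, by 0.023, 0.42, 0.068, 0.11 and 0.065. Over the 5 pools the members' medians averaged 0.13 ± 0.16 (SD, n = 5) for CDA against control. They averaged 0.075 ± 0.21 for CDA_E67Q against control and 0.062 ± 0.18 for CDA against CDA_E67Q. Each mean was smaller than the SD between pools, which is not the standard error of the mean. PLK1 in CDA against control had −0.78 in pool 1, where the control library was the highest of its group (7889), and 0.78 in pool 4, where the CDA library was the highest of its group (7562). Higher in CDA than in control in all 5 pools were BUB1, UBE2C and PTTG1, 3 of 39 against 1.97% of all genes. UBE2C was higher in CDA_E67Q than in control in all 5 (2.1% of genes), and CDK1 was higher in CDA than in CDA_E67Q in all 5 (2.63% of genes). No member was lower in all 5 pools in any of the 3 comparisons, where 1.63%, 2.03% and 1.83% of genes were.

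In pool 2, differences between libraries went with transcript length over all genes tested. In the CDA_E67Q library of pool 2, the tested genes with transcripts under 2212 bases were higher than in the other 2 libraries of that pool by a median log2 difference of 0.45, and those over 5210 bases were lower, at −0.36. The CDA library of pool 2 went the other way, with −0.32 and 0.31. Each of these 2 libraries is part of the other's reference, so their values are not independent. The gap between the long and the short genes was thus −0.81 and 0.63 in these libraries, and it lay between −0.30 and 0.20 in the other 13. Members below their median length of 3201 bases had a median of 0.25 in the CDA_E67Q library and those above it −0.037, against 0.12 and 0.32 in the CDA library. UBE2C (914 bases) and PTTG1 (1070 bases), the shortest members, had 0.81 and 0.96 in the CDA_E67Q library, and TOP2A (5758 bases) had −1.14 there and 1.13 in the CDA library. Across the 39 members, which are not independent replicates, the correlation of a library's difference with log2 length was 0.49 in the CDA library of pool 2, −0.36 in its CDA_E67Q library and 0.013 in its control library. It was of similar size in some libraries of other pools, at −0.55 in CDA pool 4, 0.50 in control pool 4 and −0.47 in CDA pool 3. GC content, the share of G and C in the transcript, differed in the same libraries and in others. The gap between genes highest and lowest in GC content was −0.42 in CDA pool 2 and 0.31 in CDA_E67Q pool 2. It was −0.45 in control pool 3 and 0.28 in CDA pool 3. The parts of length and GC content in the values of these genes were not tested. Within pool 5 the gap by length lay between −0.12 and 0.071. Between pool 5 and pools 1 to 4, the genes under 2212 bases had a median log2 difference of −0.15 and those over 5210 bases 0.19. The genes lowest in GC content had −0.082 and those highest in it 0.24.

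**Figure D2:**
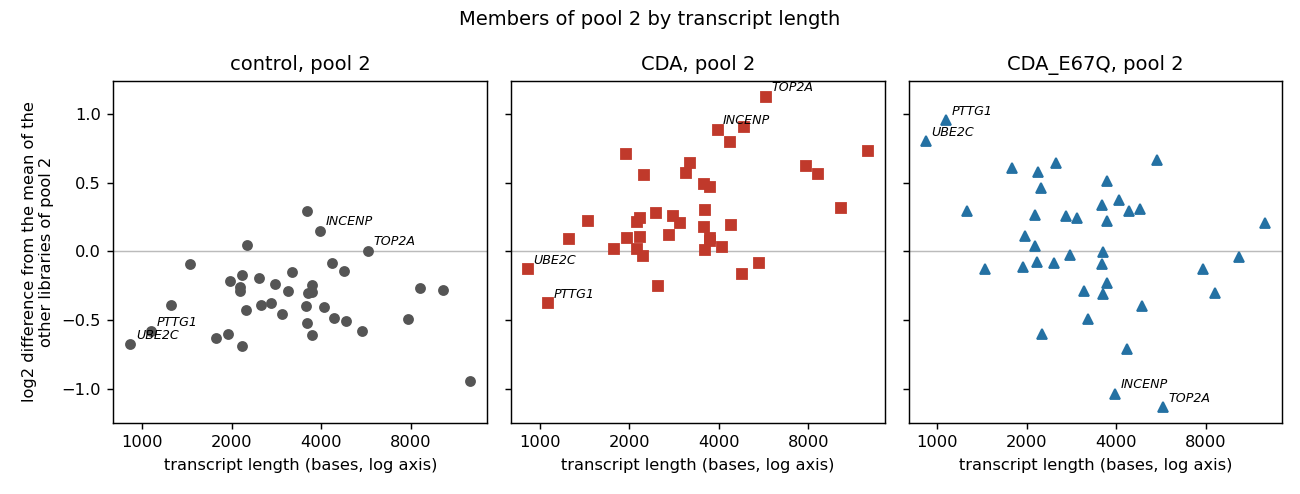
Log2 difference of each member from the mean of the other 2 libraries of pool 2, against transcript length (bases, log axis), for the control, CDA and CDA_E67Q libraries of that pool. UBE2C and PTTG1 are high and TOP2A and INCENP low in the CDA_E67Q library, and TOP2A is high in the CDA library.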

How the data were processed

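RNA from 15 Mia PACA-2 libraries was sequenced after poly-T selection, per the labels' protocols. The submitters' processing notes list bcl2fastq, FastQC, Trimmomatic, Salmon and GRCh38 (hg38), and how the tables were made from Salmon's output is not stated there. The deposited values are log2 values with a floor of 6.65 in the CDA table and 6.17 in the CDA_E67Q table, and each table was normalised on its own by the authors. Their form is that of a variance-stabilising transformation, an inference from the values. They were turned back into normalised counts, which are estimates and not whole reads, so a count model was not used and limma took the place of edgeR.

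The same 5 control libraries stand in both tables, and gene by gene their ratio put the 15 libraries on 1 scale (13917 of 16887 genes, largest residual 3.06e-08 on the log2 scale). Genes with at least 10 normalised counts in at least 5 libraries were kept. Tests used limma 3.58.1 with a mean-variance trend in R 4.3.3, on log2(normalised count + 1), so that fold changes of low genes are understated. P-values were adjusted by Benjamini-Hochberg over all genes tested, with a threshold of 0.05. Each overexpressing group was compared with the controls of its own table. CDA against CDA_E67Q used all 15 libraries. F tests between pool numbers carried the group as a covariate. The score of a library is the mean over the 39 members of log2(normalised count + 1) less each gene's mean over the 15 libraries.

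Read numbers were estimated from the smallest step of the values. Transcript lengths (known for 98.0% of tested genes) and positions came from GENCODE release 29, and promoter windows from RefSeq. In simulated data with 200 changed genes, the comparison of CDA with control recovered 32% of log2 changes of 1 and 77% of log2 changes of 2. The test between pools 1 to 5 recovered 41% and 87%. The simulated noise was drawn independently for each gene and library, with no difference shared by a pool. These shares therefore do not measure the power of the comparisons made here. In the real data CDA itself, at a log2 difference of 4.71 from control, did not pass.

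Members and gene lists were chosen with earlier results of these data known. Levels in every library are printed for 9 members that stand for the roles, for the 4 members with the largest and the 4 with the smallest F between pools 1 to 5, and for the 3 members with the smallest p in each comparison of groups. Up to 3 genes of each further list are named. PTTG1 and the members named as the lowest or highest of a role or pool were chosen after their values were seen. Alternatives covered the pseudocount (5 and 0.5), the filter (none and 50), 2 other scalings, the deposited values themselves, the samples in the fit, the replicate block, each library left out, and pools 5 and 2 left out.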

Additional observations from a re-analysis of the deposited data

Results flagged for a closer look

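In each group of 5 libraries, the lowest or highest was compared with its nearest neighbour (Dixon's test, with a critical value of 0.71 for the gap as a share of the range). Of 120 combinations of a member or the score with a group, 54 passed, all of them pool 5 as the low value, where chance gives about 1 in 20. The combinations share the same 3 libraries and are not independent, and pool 5 was already known to be low, so this count describes the same pattern and adds no evidence for it. The member score passed in all 3 groups, at −1.15 in control, −1.09 in CDA and −0.88 in CDA_E67Q. In normalised counts, the pool 5 control library passed for CCNA2 at 839.9, CCNB2 at 1046, BUB1 at 1627, MAD2L1 at 935, TTK at 628, AURKB at 1235, CDCA8 at 991, CENPA at 429, CENPF at 2142, NUF2 at 916, KIF11 at 1411, KIF23 at 961, KIF2C at 1778, KIF4A at 747, KIF18A at 252, PRC1 at 1269, HMMR at 1194, UBE2C at 1822, PTTG1 at 1620.2 and ANLN at 2701. In normalised counts, the pool 5 CDA library passed for CCNA2 at 925, CCNB2 at 1059, NEK2 at 1087, BUB1 at 1730.1, BUB1B at 725, MAD2L1 at 939.7, TTK at 608, AURKB at 1195, INCENP at 1026, BIRC5 at 1651, CENPA at 455, CENPF at 2136, NUF2 at 875, KIF2C at 1851, KIF4A at 766, KIF18A at 277, TPX2 at 3748, PRC1 at 1407, CDC20 at 2925, UBE2C at 1994, PTTG1 at 1900.2 and ANLN at 2374. In normalised counts, the pool 5 CDA_E67Q library passed for AURKA at 1838, NEK2 at 1361, TTK at 765, CENPA at 471, KIF11 at 1524, KIF18A at 363, PRC1 at 1563, HMMR at 1622 and ANLN at 3299. ANLN, CENPA, KIF18A, PRC1 and TTK passed in all 3 groups.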

How the results depend on the processing

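Over the alternatives that kept all libraries, 36 to 38 members were called between pools 1 to 5 and 0 between pools 1 to 4 or between groups. Leaving out each library in turn gave 34 to 38 calls between pools 1 to 5, 0 calls in the other tests, and a pool 5 median of −1.45 to −1.28. The group medians rested on which pool 5 library was in the fit. Leaving out 1 library, the median of CDA against control ran from −0.13 (without control pool 5) to 0.44 (without CDA pool 5), that of CDA_E67Q against control from −0.19 (without control pool 5) to 0.31 (without CDA_E67Q pool 5), and that of CDA against CDA_E67Q from −0.18 (without CDA_E67Q pool 5) to 0.34 (without CDA pool 5). In CDA against CDA_E67Q, CDK1 was at −0.023 without CDA pool 2 and −0.036 without CDA_E67Q pool 5, with a range of −0.036 to 0.46. BUB3 was at −0.051 without CDA pool 2, with a range of −0.051 to 0.26. Such omissions of 1 library leave the low pool 5 with unequal weight in the 2 groups. Between same-numbered libraries, CDK1 was higher in CDA in all 5 pools and BUB3 in 4. TOP2A was at −0.057 without pool 2 in both groups. Leaving out pool 2, scoring libraries under other pseudocounts and scalings, and the replicate block on deposited values were chosen after seeing the data. With the pool number as a replicate block, 0 members were called in each of the 3 comparisons, medians were 0.13, 0.095 and 0.014 as without it, and the median standard error over members was 0.12, 0.14 and 0.13 against 0.38, 0.35 and 0.37 without it. Unadjusted p-values below 0.05 under the block were found for 1 member in CDA against control (UBE2C, 0.019, against 1.77% of genes) and 1 in CDA_E67Q against control (ECT2, 0.028, against 2.34%). Same-numbered libraries had correlations of their deviations from the group means of −0.060 to 0.89, with 0.88 to 0.89 in pool 5. The main fits, as planned, did not pair libraries by number, and the labels do not say whether equal numbers share a source. Standard errors, p-values and intervals of the main fits therefore include the differences between pools. The best partner in another group had the same number for 13 of 15 libraries, and control pools 1 and 4 correlated best with CDA pools 4 and 1 (0.53 and 0.47). Of the promoter counts, 23 of 33 members held TTTGAA alone, and 24 held either core in the last 150 bases of the window, against 25. Depth limits little here, since the lowest pool 5 level of a member was 252 normalised counts.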
